A study of Homo sapiens with 16 samples.

Results

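The 10 genes described here encode granule proteins, mediator enzymes and a receptor chain of eosinophils, basophils and mast cells, together with CYTL1. They were the rows of the deposited table of estimated counts with the symbols PRG2, PRG3, EPX, CLC, HDC, MS4A2, CPA3, RNASE2, RNASE3 and CYTL1, 10 of 60603 genes. RNA had been sequenced from SKNO-1, a myeloid leukaemia line with a RUNX1-RUNX1T1 fusion, and from U-937, a monocyte-like line. Cells of each line received, for 24 h, DMSO as vehicle, all-trans retinoic acid (ATRA, a ligand of retinoic acid receptors) at 0.1 µM, Corin (an inhibitor of the demethylase LSD1 and the histone deacetylases HDAC1 and HDAC2 within the CoREST complex) at 0.1 µM, or both agents at 0.1 µM each. Every group held 2 libraries, so 16 libraries were used. Both lines grew in RPMI1640 with fetal bovine serum, and the SKNO-1 medium alone also held GM-CSF at 10 ng/mL. Each line derives from a single patient. No label states that the 2 libraries of a group came from separate cultures, so the p-values measure the spread between these libraries, which may be technical.

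Eosinophils store cationic proteins in their granules, among them the major basic protein (PRG2) with its homolog PRG3, the peroxidase EPX and the ribonucleases RNASE2 and RNASE3. Mast cells and basophils make histamine through the decarboxylase HDC, store the protease CPA3 and bind IgE through a receptor whose beta chain is MS4A2. These lineages share progenitors and depend on GATA and C/EBP transcription factors, and GM-CSF supports eosinophil growth.

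On GRCh38 (GENCODE 44), the major basic protein gene and its homolog are neighbours on the minus strand of chromosome 11, with PRG3 at chr11:57376769-57381150, and MS4A2 lies further along at chr11:60088261-60098467 on the plus strand. The ribonuclease genes are a pair on the plus strand of chromosome 14, RNASE3 at chr14:20891385-20892348 and RNASE2 at chr14:20955487-20956436. CLC is at chr19:39731255-39738029 (minus strand), EPX at chr17:58192726-58205174 (plus), CPA3 at chr3:148865296-148897203 (plus), HDC at chr15:50241947-50265965 (minus) and CYTL1 at chr4:5014586-5019458 (minus).

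Library totals ran from 32.8 to 37.8 M estimated counts in SKNO-1 and from 28.4 to 37.6 M in U-937. A floor of 3 counts corresponds to 0.0790 to 0.0935 CPM (counts scaled to library totals of 1 M) in SKNO-1 and to 0.0798 to 0.103 CPM in U-937, and covers counting error only. The filter on low counts kept 9 members in SKNO-1 (all but MS4A2) and 5 in U-937 (PRG2, MS4A2, RNASE2, RNASE3 and CYTL1). In U-937, PRG2 passed it only through the Corin libraries. The SKNO-1 DMSO libraries stood further apart than any other pair. The SD over genes of their log2 difference was 0.361, against 0.108 to 0.208 in the other 7 groups, and that difference correlated with gene GC content (r = 0.796 over genes, which do not vary independently). All SKNO-1 comparisons with DMSO rest on this pair. Adjusted p-values below come from edgeR (quasi-likelihood F test, Benjamini-Hochberg adjustment over all genes tested). A gene is called at an adjusted p under 0.05, and the error of a log2 fold change is its standard error (SE).

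The label of the gene group was checked against preset markers. In SKNO-1, 4 of 7 eosinophil markers exceeded 1 CPM in both DMSO libraries, and the receptor chain IL5RA was at 88.6 and 94.0 CPM. Of 8 mast cell and basophil markers, 2 did so, the stem cell factor receptor KIT and CPA3. In U-937 the eosinophil markers EPX, PRG3, CLC and IL5RA had 0 counts in all 8 libraries, as had the IgE receptor chain FCER1A. RNASE2 and RNASE3 were abundant there all the same, and RNASE2 is known from monocytes and neutrophils as well as eosinophils. CYTL1, a secreted cytokine-like protein first described in blood progenitors, defines none of these cell types. The name therefore describes known sites of expression of the genes, and not the identity of either line. Less RNA per cell and fewer expressing cells cannot be told apart in these bulk libraries.

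Levels of different genes were compared in deposited TPM (transcript abundance with gene length taken into account). In SKNO-1 with DMSO, RNASE2 was at 183 ± 38.8 TPM (SD, n = 2), CYTL1 at 84.5 ± 18.3, PRG2 at 36.5 ± 0.212 and CLC at 35.2 ± 8.83. RNASE3 followed at 5.99 ± 1.71, CPA3 at 5.47 ± 1.98, EPX at 2.57 ± 0.0283, PRG3 at 0.690 ± 0.297, HDC at 0.340 ± 0.0283 and MS4A2 at 0.0800 ± 0.113. The neighbours PRG2 and CLC, and RNASE3 and CPA3, did not differ beyond their spread. In U-937 with DMSO, RNASE2 was at 207 ± 13.3 TPM, RNASE3 at 68.9 ± 4.57, CYTL1 at 2.59 ± 0.693, MS4A2 at 0.575 ± 0.276 and PRG2 at 0.195 ± 0.120, and the other 5 members had 0 counts.

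With ATRA in SKNO-1, 1 of the 9 members that passed the filter rose (CLC) and 4 fell (HDC, CPA3, RNASE2 and CYTL1). Among all 17479 genes tested, 6.76% were called, 2.96% higher and 3.79% lower. The median log2 fold change of the 9 was -0.59, against 0.01 over all genes. With Corin all 9 were called in SKNO-1. HDC and CPA3 rose and the other 7 fell, against 37.9% of all genes called (20.5% higher and 17.3% lower), with a median of -1.33 against 0.00. The 9 include PRG2 and CYTL1, named in earlier results for their fall with both agents against these same DMSO libraries. The Corin calls of PRG3 and RNASE3 were lost in some alternative runs. In the authors' deposited DESeq2 table their adjusted p-values are 0.0815 and 0.0996.

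CLC, the galectin that forms Charcot-Leyden crystals, had opposite responses to the agents. Its SKNO-1 levels were 21.8 and 21.7 CPM with DMSO, 57.9 and 56.8 with ATRA, 8.55 and 8.43 with Corin, and 21.5 and 20.1 with both agents. The ATRA libraries lay above and the Corin libraries below all others, while the combination lay just under the DMSO pair. ATRA raised CLC 2.64-fold (log2 1.40 ± 0.0769, adjusted p = 3.73e-05). Corin lowered it to 0.391 times the DMSO level (log2 -1.36 ± 0.0813, adjusted p = 2.18e-05). Adding ATRA to Corin raised it 2.45-fold (adjusted p = 8.38e-05), and adding Corin to ATRA lowered it to 0.362 times (adjusted p = 9.83e-06). The combined log2 effect departed from the sum of the single effects by -0.11 ± 0.111 (adjusted p = 0.663).

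CPA3, the carboxypeptidase of mast cell granules, was moved the other way by each single agent. SKNO-1 libraries held 9.28 and 10.0 CPM with DMSO, 1.35 and 1.41 with ATRA, 24.2 and 25.9 with Corin, and 3.24 and 3.75 with both. No group overlapped another, and the combination lay between ATRA alone and DMSO. ATRA lowered CPA3 to 0.143 times (log2 -2.81 ± 0.140, adjusted p = 2.88e-05) and Corin raised it 2.60-fold (log2 1.38 ± 0.117, adjusted p = 0.000102). The departure from additivity was -0.03 ± 0.188 on the log2 scale (adjusted p = 0.958). An antisense long noncoding RNA overlaps CPA3, and the strand setting of the counting is unknown, so reads of the pair may be mixed.

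HDC, the histamine-forming enzyme, was scarcer and moved in the same direction as CPA3 with each single agent. Its counts in SKNO-1 were 26 and 26 with DMSO, 4 and 6 with ATRA, 95 and 84 with Corin, and 18 and 24 with both agents. The ATRA libraries were lowest and the Corin libraries highest, and the combination overlapped DMSO in CPM (0.561 and 0.720 against 0.752 and 0.685). ATRA lowered HDC to 0.198 times (log2 -2.34 ± 0.339, adjusted p = 0.00469) and Corin raised it 3.61-fold (log2 1.85 ± 0.232, adjusted p = 0.000665). With only the 4 libraries compared in the fit, the ATRA call was lost (adjusted p = 0.0743), and the authors' deposited table gives an adjusted p of 0.219 for it. Adding ATRA to Corin lowered HDC to 0.248 times (adjusted p = 0.00188), and adding Corin to ATRA raised it 4.52-fold (adjusted p = 0.00162). MS4A2 had at most 7 counts in any SKNO-1 library, with 0 and 7 under DMSO, and was not tested there.

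**Figure D1:**
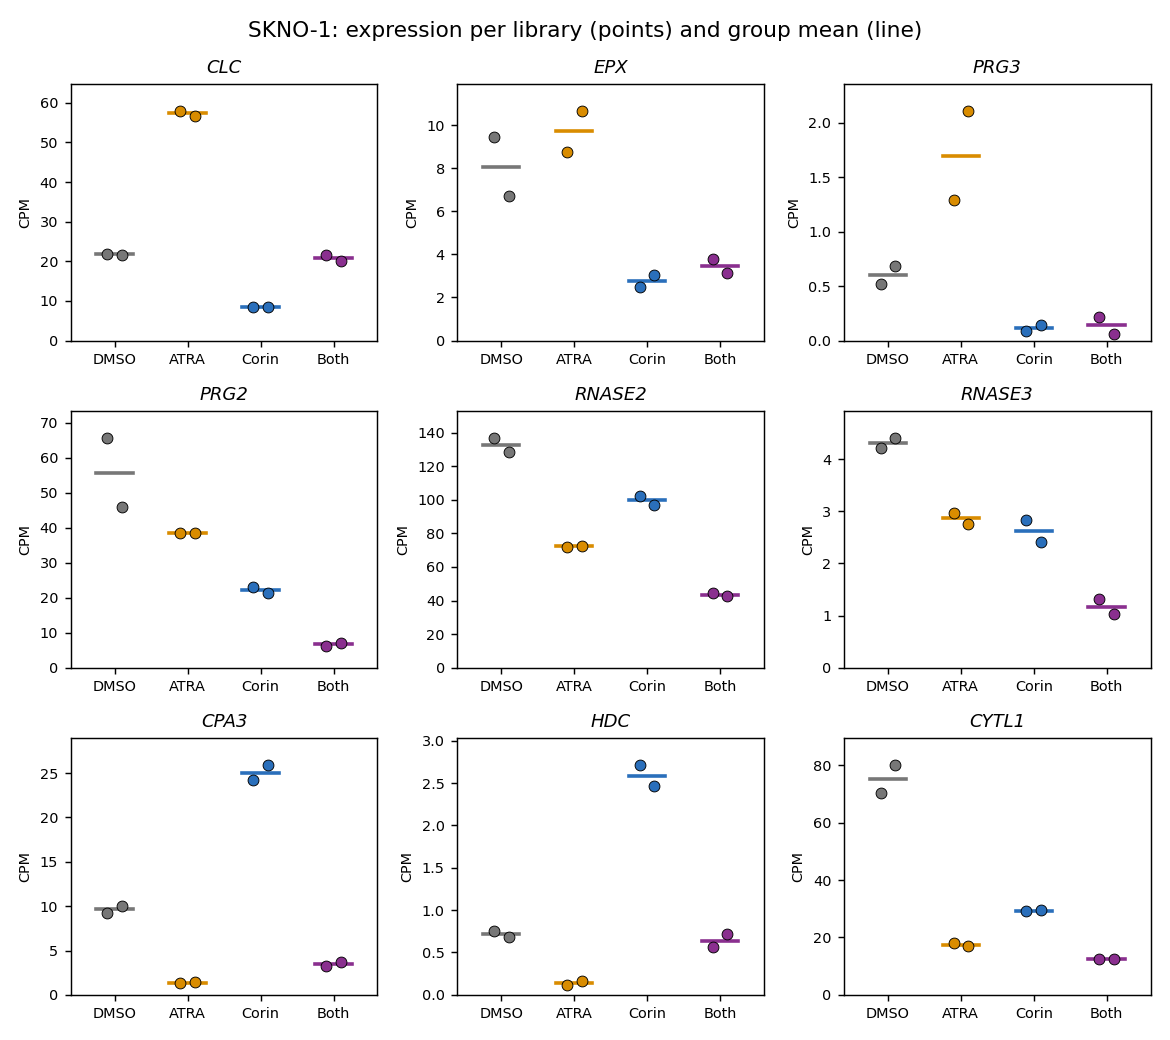
Expression of the 9 members that passed the filter in SKNO-1, in CPM on separate linear axes starting at 0, by treatment; points are the 2 libraries of a group and lines their mean. CLC is highest with ATRA (57.9 and 56.8 CPM), while CPA3 is highest with Corin (24.2 and 25.9 CPM), and CYTL1 and RNASE2 are highest with DMSO.

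The peroxidase EPX fell with Corin. It was at 9.46 and 6.69 CPM with DMSO, 8.76 and 10.6 with ATRA, 2.51 and 3.06 with Corin, and 3.80 and 3.15 with both agents. Both Corin-containing groups lay below the DMSO and ATRA libraries, which overlapped each other. Corin lowered EPX to 0.345 times (log2 -1.54 ± 0.220, adjusted p = 0.00122), and Corin on top of ATRA to 0.358 times (adjusted p = 0.00103). The ATRA difference was 0.27 ± 0.203 on the log2 scale (adjusted p = 0.586), and ran from 0.0038 to 0.50 with 1 library left out. An antisense noncoding RNA overlaps EPX too.

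PRG3, the homolog of the major basic protein, gave few counts. They were 18 and 26 with DMSO, 43 and 78 with ATRA, 3 and 5 with Corin, and 7 and 2 with both. The ATRA libraries were highest and both Corin-containing groups lowest, without overlap with DMSO. Corin lowered PRG3 to 0.192 times (log2 -2.38 ± 0.594, adjusted p = 0.0152), a call lost without either Corin library (adjusted p = 0.105 without replicate 1 and 0.0623 without replicate 2). The 2.82-fold higher level with ATRA missed the threshold (adjusted p = 0.0801). The log2 difference was 1.27 without DMSO replicate 1 and 1.68 without replicate 2, runs in which the spread of the DMSO pair did not enter the error. Corin on top of ATRA lowered PRG3 to 0.0809 times (adjusted p = 0.001).

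PRG2, the major basic protein precursor, lies at chr11:57386780-57390650 on the minus strand (GENCODE 44, GRCh38). It shares 791 exon bases with the readthrough gene AP000781.2 on the same strand. Reads that fit both genes are divided by the counting model, and the PRG2 estimate was not whole in 14 of 16 libraries. In SKNO-1, PRG2 was given 10.8 to 22.6% of the counts of the pair, so its own level is uncertain. AP000781.2 also shares 1349 exon bases with SLC43A3, a membrane transporter gene, which fell with Corin (log2 -0.85, adjusted p = 0.000261). The part of SLC43A3 reads in the sum was not tested. PRG2 was at 65.5 and 46.0 CPM with DMSO, 38.4 and 38.5 with ATRA, 23.1 and 21.2 with Corin, and 6.27 and 7.11 with both. On the TPM scale the DMSO libraries were at 36.4 and 36.6. The sum of both genes was 290 and 242 CPM with DMSO, 212 and 216 with ATRA, 118 and 119 with Corin, and 58.3 and 54.2 with both. By either measure the groups came in the order DMSO, ATRA, Corin and combination, without overlap.

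Corin lowered PRG2 to 0.397 times (log2 -1.33 ± 0.158, adjusted p = 0.000513), and the sum changed by -1.16 ± 0.0872 on the log2 scale (adjusted p = 6.07e-05). ATRA alone gave -0.54 ± 0.154 (adjusted p = 0.0947) for PRG2 and -0.31 ± 0.0858 (adjusted p = 0.0787) for the sum. The ATRA difference of PRG2 passed the threshold with the GC trend removed and with DESeq2 (adjusted p = 0.00666 and 0.0119). It was -0.30 without DMSO replicate 1 and -0.81 without replicate 2. In those runs 1 DMSO library remained, so the spread of the DMSO pair did not enter the error. The combination against Corin gave -1.73 for PRG2 and -1.08 for the sum, and the departure from additivity was -1.19 and -0.76. These values hold the libraries that chose the gene, so they are descriptions without a test.

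**Figure D2:**
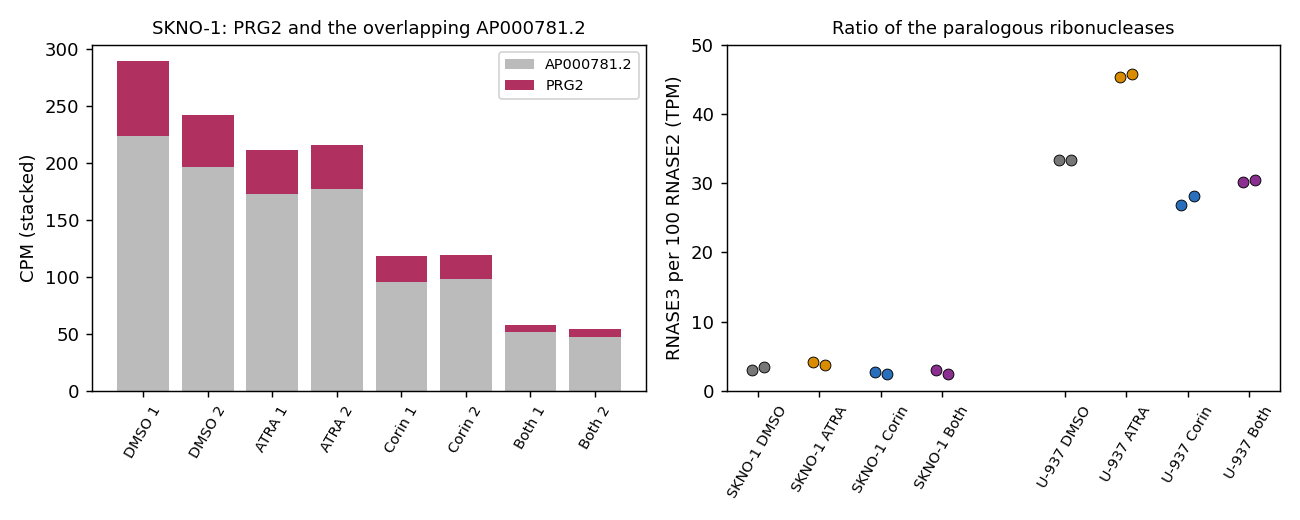
Left, stacked CPM of PRG2 and the overlapping gene AP000781.2 in the 8 SKNO-1 libraries; right, deposited TPM of RNASE3 per 100 TPM of RNASE2 in all 16 libraries. The summed locus falls from 290 and 242 CPM with DMSO to 58.3 and 54.2 CPM with both agents, and the ratio is 2.39 to 4.14 in SKNO-1 and 26.8 to 45.8 in U-937.

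The paralogous ribonucleases RNASE2 (eosinophil-derived neurotoxin) and RNASE3 (eosinophil cationic protein) fell in SKNO-1 with Corin. RNASE2 was at 137 and 128 CPM with DMSO, 71.7 and 72.7 with ATRA, 102 and 96.9 with Corin, and 44.2 and 42.6 with both. Each group lay apart from the others, with the combination lowest. ATRA lowered RNASE2 to 0.545 times (log2 -0.88 ± 0.0631, adjusted p = 0.000142) and Corin to 0.752 times (log2 -0.41 ± 0.0626, adjusted p = 0.00166). RNASE3 was at 4.21 and 4.4 CPM with DMSO, 2.97 and 2.76 with ATRA, 2.82 and 2.41 with Corin, and 1.31 and 1.02 with both. The single-agent groups overlapped each other and lay below DMSO, and the combination was lowest. Corin lowered RNASE3 to 0.609 times (adjusted p = 0.0148; 0.109 without Corin replicate 2, and 0.0563 with only the 4 libraries compared in the fit). The ATRA difference was -0.59 ± 0.176 on the log2 scale (adjusted p = 0.109). It was -0.66 without DMSO replicate 1 and -0.59 without replicate 2, runs in which the spread of the DMSO pair did not enter the error.

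CYTL1 fell with either agent in SKNO-1. It was at 70.4 and 80.0 CPM with DMSO, 18.1 and 16.9 with ATRA, 29.2 and 29.5 with Corin, and 12.6 and 12.6 with both. The groups did not overlap. ATRA lowered CYTL1 to 0.233 times (log2 -2.10 ± 0.0889, adjusted p = 1.36e-05) and Corin to 0.390 times (log2 -1.36 ± 0.0861, adjusted p = 2.9e-05). The combination was less low than the sum of the log2 effects by 0.88, a description without a test, since those libraries chose the gene. Of the 7 members tested for departure from additivity, edgeR called 0 and DESeq2 called 0. Over all genes edgeR called 0.463% there (0.315% higher and 0.149% lower). By edgeR 1 member, RNASE2, had an unadjusted p under 0.05 (log2 -0.32 ± 0.0894, adjusted p = 0.204). Its departure was -0.31 without DMSO replicate 1 and -0.25 without replicate 2.

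With both agents in SKNO-1, PRG2 at 0.120 times and CYTL1 at 0.167 times the DMSO level were the measured values named in earlier results, and the members are taken as chosen by them. That comparison is therefore a description without a test, and PRG2 and CYTL1 were left untested wherever these libraries entered. The single-agent comparisons share the DMSO libraries with it. Those of the combination against either agent, and of additivity, share its combination libraries, so their calls are not independent of that choice. EPX was at 0.431, PRG3 at 0.228, CPA3 at 0.363, RNASE2 at 0.328 and RNASE3 at 0.271 times the DMSO level, with CLC at 0.956 and HDC at 0.894 times. Over all genes 46.7% were called (24.7% higher and 22.0% lower), from which nothing is read here. Against ATRA alone, the combination was higher for CPA3 and HDC and lower for the other 5 of 7 members tested (44.8% of all genes called, 23.0% higher and 21.8% lower). Against Corin alone, CLC was higher, CPA3, HDC, RNASE2 and RNASE3 were lower and EPX and PRG3 were not called (10.4% of all genes called, 4.82% higher and 5.60% lower). RNASE3 lost its call without either Corin library or without combination replicate 2 (adjusted p = 0.104, 0.0507 and 0.115).

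**Figure D3:**
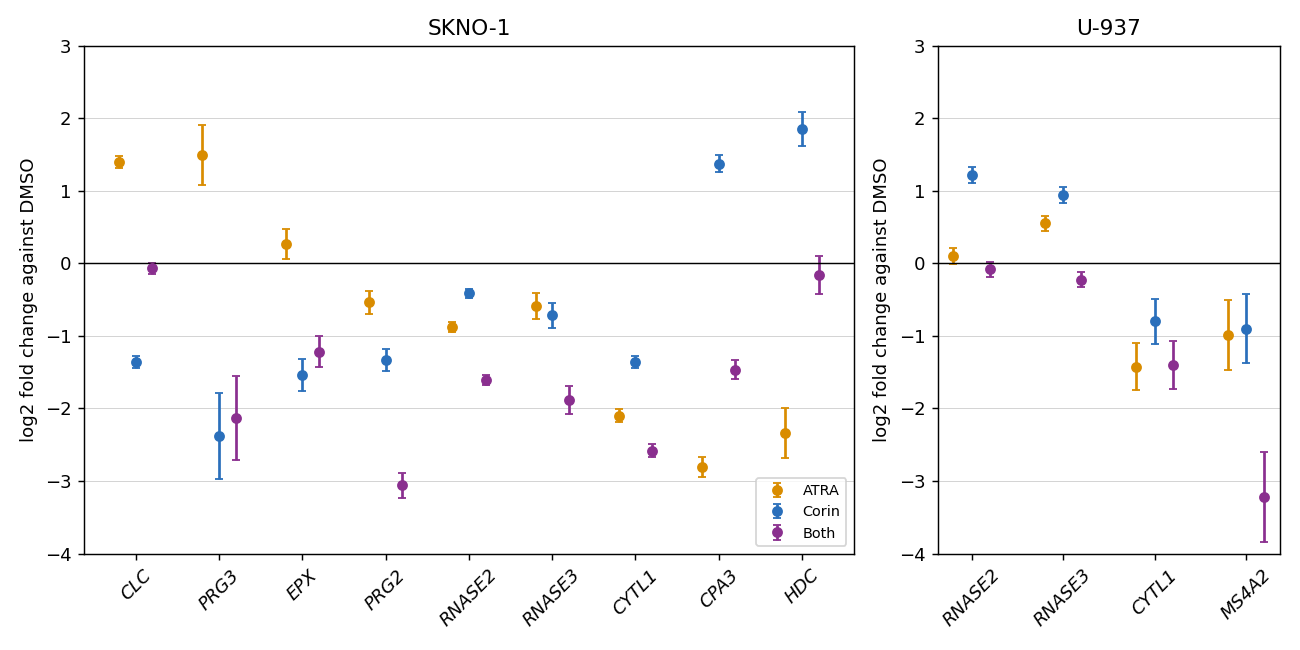
Log2 fold change against DMSO for each agent, with SE as bars, for 9 members in SKNO-1 (left) and 4 in U-937 (right). In SKNO-1, ATRA and Corin point in opposite directions for CLC (1.40 and -1.36), CPA3 (-2.81 and 1.38) and HDC (-2.34 and 1.85), and both values are below 0 for RNASE2, RNASE3, PRG2 and CYTL1.

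Across the 8 SKNO-1 libraries, log2 CPM of CLC ran against that of HDC (r = -0.99) and of CPA3 (r = -0.93), and HDC ran with CPA3 (r = 0.95). PRG3 ran with EPX (r = 0.94), and RNASE2 with RNASE3 (r = 0.93) and CYTL1 (r = 0.93). These are descriptions over 8 libraries in 4 groups that share their treatments. Among 1294 genes that averaged 5 CPM or more and had a span of at least 1 log2 unit, those most like CPA3 were MS4A3 (r = 0.992), LMO4 (0.989) and IQGAP2 (0.989). CLC was most like FUT4 (0.990), TRIB1 (0.990) and MAN2A2 (0.984). The nearest to EPX was CDAN1 (0.987), to RNASE2 DUSP3 (0.988), to CYTL1 PTPN13 (0.995), and to PRG2 its overlapping AP000781.2 (0.985).

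RefSeq upstream sequences (GRCh38.p14) were found for 8 of the 10 members, all but EPX and PRG2. The 250 bases before the start are printed for CLC and PRG3, and for CPA3, because these granule genes responded in opposite directions to Corin. They are printed for RNASE2 and RNASE3 because the paralogs differed in level, and for CYTL1 because it fell with either agent. Each runs 5′ to 3′ along the gene, and capitals mark matches on either strand to GATAA (GATA factors), AGGTCA (nuclear receptor half-site), TGTGGT (RUNX) or TTGCNNAA (C/EBP).
CLC, chr19:39738030-39738279, minus strand: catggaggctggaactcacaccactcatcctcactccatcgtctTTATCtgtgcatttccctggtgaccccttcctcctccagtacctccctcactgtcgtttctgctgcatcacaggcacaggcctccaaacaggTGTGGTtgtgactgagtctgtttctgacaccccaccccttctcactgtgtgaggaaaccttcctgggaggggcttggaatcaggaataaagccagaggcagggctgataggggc
PRG3, chr11:57381151-57381400, minus strand: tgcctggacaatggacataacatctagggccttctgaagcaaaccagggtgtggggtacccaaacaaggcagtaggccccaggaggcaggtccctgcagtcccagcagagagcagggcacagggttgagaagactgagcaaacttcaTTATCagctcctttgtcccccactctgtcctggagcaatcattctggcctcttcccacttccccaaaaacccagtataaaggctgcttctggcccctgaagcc
CPA3, chr3:148865046-148865295, plus strand: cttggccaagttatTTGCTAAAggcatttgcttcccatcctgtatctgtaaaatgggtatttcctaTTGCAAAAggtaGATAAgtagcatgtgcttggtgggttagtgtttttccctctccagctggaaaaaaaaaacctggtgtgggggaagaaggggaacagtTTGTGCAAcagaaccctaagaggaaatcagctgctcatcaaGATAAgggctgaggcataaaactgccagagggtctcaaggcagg
RNASE2, chr14:20955237-20955486, plus strand: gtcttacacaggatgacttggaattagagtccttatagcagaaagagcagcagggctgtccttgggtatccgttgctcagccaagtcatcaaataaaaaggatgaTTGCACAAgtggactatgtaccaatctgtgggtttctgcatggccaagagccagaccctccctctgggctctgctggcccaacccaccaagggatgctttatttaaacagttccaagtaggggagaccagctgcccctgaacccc
RNASE3, chr14:20891135-20891384, plus strand: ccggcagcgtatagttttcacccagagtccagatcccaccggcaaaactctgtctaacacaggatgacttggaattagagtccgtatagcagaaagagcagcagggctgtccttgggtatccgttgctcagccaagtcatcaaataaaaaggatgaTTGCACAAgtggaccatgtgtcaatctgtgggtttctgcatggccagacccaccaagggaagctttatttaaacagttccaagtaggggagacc
CYTL1, chr4:5019459-5019708, minus strand: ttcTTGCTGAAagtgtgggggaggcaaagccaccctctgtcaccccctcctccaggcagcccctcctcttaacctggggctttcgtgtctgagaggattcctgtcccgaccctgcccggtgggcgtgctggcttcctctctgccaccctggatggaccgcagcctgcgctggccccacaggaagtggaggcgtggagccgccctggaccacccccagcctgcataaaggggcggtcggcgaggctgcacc
GATAA occurred before CLC, CPA3, HDC, MS4A2 and PRG3, 5 of the 8 members, and in 20.4% of 35116 RefSeq upstream regions of the same length. TTGCNNAA occurred before CPA3, CYTL1, RNASE2 and RNASE3, 4 of 8, against 9.05% of all regions. TGTGGT was found before CLC and HDC (11% of all regions) and AGGTCA before HDC (12.1%). No printed match shared bases with another. The RNASE2 and RNASE3 regions were identical at 193 of 199 aligned bases, with 102 gap bases. A match is a description of letters and not of binding.

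In U-937 the measurable part of the group was mainly the ribonuclease pair, and Corin raised both. RNASE2 was at 126 and 134 CPM with DMSO, 138 and 141 with ATRA, 336 and 272 with Corin, and 114 and 132 with both. The Corin libraries stood above all others, and the combination overlapped DMSO. Corin raised RNASE2 2.34-fold (log2 1.23 ± 0.110, adjusted p = 1.43e-08), and ATRA on top of Corin lowered it to 0.404 times (adjusted p = 3.28e-10). The ATRA difference was 0.10 ± 0.109 on the log2 scale (adjusted p = 0.478).

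RNASE3 was at 42.1 and 44.8 CPM with DMSO, 62.6 and 64.7 with ATRA, 90.2 and 76.7 with Corin, and 34.4 and 40.1 with both. Either agent alone lay above DMSO and the combination below it. ATRA raised RNASE3 1.47-fold (log2 0.55 ± 0.108, adjusted p = 0.000215) and Corin 1.92-fold (log2 0.94 ± 0.108, adjusted p = 8.03e-07). Both agents together gave -0.22 ± 0.109 (adjusted p = 0.0791; 0.0215 without combination replicate 2, and 0.00258 with library totals only as the scaling). The combined effect was below the sum of the single log2 effects by -1.41 ± 0.154 for RNASE2 (adjusted p = 1.9e-07) and -1.72 ± 0.153 for RNASE3 (adjusted p = 7.86e-09), where 23.4% of all 17717 genes were called (8.09% higher and 15.3% lower). Counting PRG2, 3 of 5 members were lower there, but PRG2 passed the filter only through its Corin libraries, which enter this contrast. PRG2 summed with its overlapping gene missed the threshold (-0.99 ± 0.375, adjusted p = 0.0581). Per 100 TPM of RNASE2 there were 26.8 to 45.8 TPM of RNASE3 in U-937 and 2.39 to 4.14 in SKNO-1. The values in U-937 were 33.3 and 33.4 with DMSO, 45.3 and 45.8 with ATRA, 26.8 and 28.2 with Corin, and 30.2 and 30.4 with both. Estimates of RNASE2 were not whole in 2 libraries and of RNASE3 in 4. The number of reads that fit both paralogs was not counted.

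The other U-937 members were low. CYTL1 counts were 64 and 55 with DMSO, 27 and 23 with ATRA, 43 and 33 with Corin, and 23 and 23 with both. All treated libraries lay below DMSO. ATRA lowered CYTL1 to 0.373 times (log2 -1.42 ± 0.322, adjusted p = 0.000958) and the combination to 0.379 times (adjusted p = 0.000618), and Corin gave -0.80 ± 0.308 (adjusted p = 0.0926). MS4A2 counts were 22 and 32 with DMSO, 17 and 14 with ATRA, 14 and 18 with Corin, and 5 and 1 with both. The combination lay lowest, at 0.107 times DMSO (log2 -3.22 ± 0.625, adjusted p = 8.76e-05). Its falls against ATRA (adjusted p = 0.00793) and against Corin (0.00437) were lost without combination replicate 2 (0.0858 and 0.0539).

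PRG2 in U-937 was given 3.50 and 8.28 estimated counts with DMSO, 6.62 and 5.21 with ATRA, 13.6 and 10.2 with Corin, and 0 and 0 with both. With the combination set to a floor of 3 counts in all, PRG2 was 4.02-fold lower than DMSO and 7.34-fold lower than Corin. These values take the few DMSO and Corin counts as exact. The edgeR fit on the 0 counts gave an adjusted p of 0.00226 against DMSO. PRG2 passed the filter only through its Corin libraries, so the value against Corin is a description without a test. The sum with AP000781.2 changed by -1.12 ± 0.276 against DMSO on the log2 scale (adjusted p = 0.00106). SLC43A3, which shares exon bases with that gene, changed by -1.53 there (adjusted p = 2.38e-12), and its part in the sum was not tested. Corin gave HDC 2 counts in 1 library and CPA3 1 count in 1 library, and both genes had 0 in the other 7.

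Of the 5 members tested in U-937, ATRA raised 1 and lowered 1 (41.8% of all genes called, 21.7% higher and 20.1% lower). Corin raised 2 (12.9% of all genes called, 8.55% higher and 4.40% lower), and both agents lowered 3 (65.3% of all genes called, 33.1% higher and 32.2% lower). Against ATRA the combination was lower for 3 (47.4% of all genes called, 22.5% higher and 24.8% lower), and against Corin for 4 (60.5% of all genes called, 29.9% higher and 30.6% lower). The 4 include PRG2, which passed the filter only through its Corin libraries. The member shares for ATRA and for the combination were near these backgrounds.

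**Figure D4:**
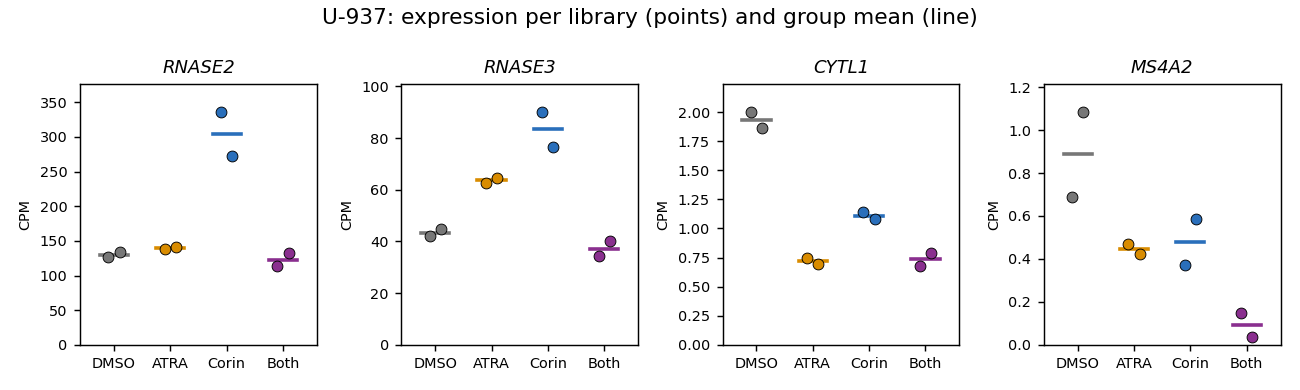
Expression in U-937 of the 4 members other than PRG2 that passed the filter, in CPM on separate linear axes starting at 0, by treatment; points are the 2 libraries of a group and lines their mean. RNASE2 and RNASE3 are highest with Corin (336 and 272, and 90.2 and 76.7 CPM), while MS4A2 is lowest with both agents.

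The difference between the lines was tested directly for the 4 members that passed the filter in both, PRG2, RNASE2, RNASE3 and CYTL1. The Corin effect on RNASE2 was higher in U-937 than in SKNO-1 by 1.64 ± 0.138 on the log2 scale (adjusted p = 1.76e-07) and on RNASE3 by 1.66 ± 0.189 (adjusted p = 7.07e-06). Among all 19872 genes, 12.8% were called there (5.28% higher and 7.49% lower in U-937). The ATRA effects differed by 1.02 ± 0.138 for RNASE2 (adjusted p = 2.71e-05) and 1.18 ± 0.187 for RNASE3 (adjusted p = 0.000143), with 19.4% of genes called (10.6% higher and 8.81% lower). For both agents they differed by 1.57 ± 0.140 for RNASE2, 1.71 ± 0.211 for RNASE3 and 1.22 for CYTL1. These are descriptions without a test, since they hold the SKNO-1 comparison that chose the members. Over all genes 40.6% were called (17.9% higher and 22.7% lower), from which nothing is read here. Medium differed between the lines as well, so line and GM-CSF cannot be told apart.

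Other genes of these lineages from chosen lists varied with treatment beside the members in SKNO-1. FCER1A, the IgE-binding chain of the mast cell receptor, followed the order of CPA3 and HDC for the single agents, at 0.839 and 0.790 CPM with DMSO, 0.0900 and 0.0270 with ATRA, 8.66 and 9.46 with Corin, and 3.86 and 3.93 with both. ATRA gave -3.84 ± 0.398 (adjusted p = 0.000937) and Corin 3.48 ± 0.202 (adjusted p = 1.97e-05) on the log2 scale. Unlike CPA3, FCER1A stayed above DMSO with both agents (log2 2.26 ± 0.207, adjusted p = 0.000102). KIT, another mast cell receptor, went the other way, up with ATRA (log2 0.52, adjusted p = 0.00174) and down with Corin (-0.60, adjusted p = 0.000245). The surface receptor list had 16 of 17 genes tested. Of these, 3 rose and 6 fell with ATRA (6.76% of all genes called), and 10 rose and 2 fell with Corin (37.9% of all genes called). Among those that rose with Corin were the eosinophil receptors SIGLEC8 (8.98-fold, adjusted p = 0.000408) and IL5RA (1.28-fold, adjusted p = 0.00483), while the eosinophil granule members fell. SIGLEC8 had 11 DMSO counts in all (0.151 CPM, near the floor), against 94 with Corin. CCR3, another preset eosinophil receptor, had 2 DMSO counts in all and was not called with Corin (log2 2.40 ± 1.01, adjusted p = 0.0987). It had 39 counts in all with ATRA and 162 with both agents, against 10 with Corin. Those higher levels stand against near-absent DMSO counts, so they are a description without a test. SIGLEC6, a sialic acid-binding lectin of mast cells, rose with ATRA (log2 1.29) and with Corin (2.77). PTGDR2, a prostaglandin D2 receptor, fell with ATRA (-1.30) but was 30.3-fold higher with ATRA in U-937 (log2 4.92). That U-937 value divides 137 ATRA counts by 4 DMSO counts in all (0.0652 CPM, near the floor). PTGDR2 passed the U-937 filter only through libraries with ATRA, so its rise there is a description without a test.

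Among granule and mediator genes, 7 of 16 were tested in SKNO-1. ATRA raised 1 and lowered 2, and Corin raised 3 and left 4 uncalled, against 6.76% and 37.9% of all genes called. The mast cell tryptase TPSB2 (log2 -0.02, adjusted p = 0.981) and the protease CTSG (0.15, adjusted p = 0.514) were among the 4. ALOX5, the leukotriene-forming lipoxygenase, fell with ATRA (0.501 times, adjusted p = 0.00202) and rose with Corin (log2 2.16, adjusted p = 1.28e-05). HPGDS, the prostaglandin D synthase of mast cells, rose with Corin (log2 2.57, adjusted p = 7.15e-05). In U-937, TPSAB1, which encodes tryptase, fell with ATRA (log2 -1.28, adjusted p = 2.64e-08) and with both agents (log2 -1.32, adjusted p = 4.49e-09), from 29.9 and 24.3 CPM with DMSO to 10.3 and 12 with ATRA. Tryptase genes are near-identical copies, so its estimate is uncertain.

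Of 13 transcription factor genes tested in SKNO-1, ATRA raised 3 and lowered 2, and Corin raised 3 and lowered 1. The backgrounds were 6.76% and 37.9% of all genes called, and nothing is read from the Corin count. GATA2, which is needed in mast cell and basophil progenitors, was at 33.5 and 22.7 CPM with DMSO, 12.9 and 12.8 with ATRA, and 37.8 and 41.0 with Corin, and fell with ATRA (log2 -1.13 ± 0.166, adjusted p = 0.00495). CEBPE, a factor of granulocyte maturation, was at 16.6 and 8.53 CPM with DMSO and at 5.64 and 6.20 with Corin (log2 -1.08 ± 0.272, adjusted p = 0.0158). With both agents neither was called against DMSO (GATA2 log2 -0.15, adjusted p = 0.464, and CEBPE 0.15, adjusted p = 0.674). The 3 factors that rose with ATRA were ID1 (log2 1.45), CEBPA (0.87) and ID2 (0.39). Those that rose with Corin were ID2 (1.29), ID1 (1.14) and GATA2 (0.49). In U-937, CEBPE rose with ATRA (2.85 ± 0.162, adjusted p = 1.08e-12), while GATA1 had at most 1 count in any library. The list of other ribonuclease genes, which also holds RNASEK of a different family, had 3 of 12 genes tested in SKNO-1 and 5 of 12 in U-937. RNASE6 fell with ATRA in SKNO-1 (-1.76, adjusted p = 0.0323) and rose with Corin in both lines (3.29 in SKNO-1 and 3.70 in U-937).

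The summed level of 4 monocyte markers (CD14, LYZ, ITGAM and CSF1R) moved with treatment beside these values. In SKNO-1 it was 60.3 to 64.9 CPM with DMSO, 47.7 to 50.5 with ATRA, 343 to 368 with Corin and 500 to 517 with both. In U-937 it was 221 to 249 CPM with DMSO, 389 to 392 with ATRA, 2023 to 2417 with Corin and 2956 to 3188 with both. LYZ made up most of the sum in every group, with means of 61.9 CPM in SKNO-1 with DMSO and 316 with Corin. In U-937, LYZ was at 230 and 2155. From DMSO to Corin in SKNO-1, ITGAM went from 0.375 to 35.5 CPM and CSF1R from 0.330 to 3.62. CD14 had 0 and 7 counts in all there, and had a mean of 0.0979 CPM with DMSO and 0.109 with Corin in U-937. With ATRA in U-937, ITGAM went from 4.70 to 104 CPM. The part of this sum in the member results was not tested. The sum of 5 neutrophil granule markers was 2661 to 3736 CPM in SKNO-1 with DMSO and 1802 to 1926 with Corin, and its part was not tested either. In U-937 the sum of these 5 was 773 to 884 CPM with DMSO and 327 to 364 with both agents. There it was mainly CTSG (means of 686 and 263), with MPO at 0.198 and 0.160, so the sums of the lines rest on different genes. AZU1 was not lower there (35.5 and 40.5). The sum of 6 erythroid and megakaryocyte markers in SKNO-1 was 7.11 to 12.3 CPM with DMSO and 35.6 to 36.0 with Corin, with 5 of the 6 at 0 counts in both groups, and its part was not tested.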

How the data were processed

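The members and the context lists were chosen with earlier results of these data known. Trimmomatic, STAR, RSEM, deepTools and DESeq2 with hg38 are named in the submitters' processing notes, and no versions are given in the sources used here. The authors deposited RSEM expected counts and TPM per gene, per the file headers. Their 6 deposited comparison tables hold log2 fold changes and adjusted p-values. Per the labels' protocols, libraries came from a stranded total RNA kit with paired-end reads of 100 bp.

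Expected counts were rounded, filtered with filterByExpr, scaled by TMM and fitted with edgeR 4.0.16 (R 4.3.3) robust quasi-likelihood models on the 8 libraries of a line, or on all 16 for differences between lines. A fit per line has 4 residual degrees of freedom, and the BCV (biological variation) came to 0.107 for SKNO-1 and 0.0945 for U-937. The procedure was tested on simulated data. CPM uses TMM-scaled totals. No 2 libraries were duplicates (chi-square per degree of freedom of 3.39 or more in every pair).

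Named genes are the members and a part of those that met 2 rules. The rules were up to 3 called genes per list and comparison with the largest change and a mean of at least 1 CPM, and the 3 genes most correlated with a member. ADGRE1 met them but is not described above (log2 6.71 with both agents in U-937, the largest such change, and 2.40 in SKNO-1). SRGN is left out as well (1.31 in SKNO-1 and 1.46 in U-937 with ATRA), as are FCER1G, SPI1, MITF, RNASE4 and ANG. IL5RA, GATA1, the overlapping AP000781.2 and SLC43A3, and the preset markers were named outside those rules. KIT, SIGLEC8, CCR3, TPSB2 and CTSG were named after their values were seen. PRG2 and CYTL1 were not tested where SKNO-1 libraries with both agents entered. Gene positions are from GENCODE 44, and upstream sequences from RefSeq.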

Additional observations from a re-analysis of the deposited data

Results flagged for a closer look

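Line differences flagged by edgeR's interaction test, some of them descriptions only, are given here as the effect in U-937 minus that in SKNO-1, on the log2 scale. For ATRA they were 1.02 for RNASE2, 1.18 for RNASE3 and 0.72 for CYTL1. The CYTL1 difference (adjusted p = 0.0315) was lost under DESeq2 (0.091), with the replicate block (0.051), with library totals only (0.0623), with no filter (0.0839) and when any of 7 single libraries was left out (0.0603 to 0.249). For Corin they were 1.64 for RNASE2, 1.66 for RNASE3 and 2.17 for PRG2. The PRG2 difference rests on few U-937 counts. PRG2 passed the U-937 filter only through its Corin libraries, so this value is a description without a test. It was 1.72 without U-937 DMSO replicate 1 and 2.10 without U-937 Corin replicate 1, and 0.98 (adjusted p = 0.00205) for the sum with AP000781.2. For both agents they were 1.57 for RNASE2 and 1.71 for RNASE3, where 40.6% of all genes were called. These 2 values are descriptions without a test, since they hold the SKNO-1 comparison that chose the members.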

How the results depend on the processing

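No called log2 fold change of a member reversed under any alternative run. Runs with 1 library left out leave 1 library in a group, so the spread of that pair does not enter the error. Of all member values under alternatives, whether called, not called or untested, 680 kept their side of the threshold or moved by less than the spread, 13 passed it newly, 7 lost it and 14 untested values moved further. With 1 library left out these numbers were 783, 11, 18 and 4. Members called for ATRA in SKNO-1 numbered 5, and 8 with the GC trend removed, with or without the block, and 5 to 9 with 1 library left out. Members called beyond additivity in SKNO-1 numbered 0, and 0 to 1 with 1 library left out. Members called for both agents in U-937 numbered 3, and 5 with library totals only. PRG2 summed with its overlapping gene was chosen after the data were seen.

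Replicate numbers did not pair the libraries (correlations of deviations from -0.49 to 0.24 in SKNO-1 and from -0.45 to 0.42 in U-937). The replicate block gave 0 members beyond additivity in SKNO-1 and moved the count of all genes from 81 to 20 there, and from 1822 to 1066 for the combination against Corin.

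Counts over all genes in SKNO-1 also moved. For ATRA, 1181 became 2459 with the GC trend removed (2226 with the block), 1963 with no filter, 247 with only the libraries compared, and 564 to 5337 with 1 library left out. Beyond additivity, 81 became 269 with DESeq2, 565 with the GC trend removed (453 with the block), 1445 with no filter and 7 to 5729 with 1 library left out. For the combination against Corin, 1822 became 2896, 4238 and 7431 with the GC trend removed, no filter and only the libraries compared, and 399 to 7162 with 1 left out. For Corin, 6619 became 3816 with only the libraries compared and as few as 3682 with 1 left out. The combination fell from 8160 to as few as 5434 against DMSO and from 7828 to 4961 against ATRA. For U-937 Corin, 2293 became as few as 1349. For the Corin line difference, 2538 became 4027 with the GC trend removed and 1532 to 4537 with 1 left out.

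The authors' deposited tables gave the same sign for 41 of 41 member values, within 0.0718 log2 units. Of 21 member calls made here in the other 5 comparisons, leaving out both agents in SKNO-1, 4 are not past the threshold there (PRG3 and RNASE3 for Corin and HDC for ATRA in SKNO-1, and PRG2 for both agents in U-937). PRG3, HDC and MS4A2 had at most 95 counts in any library, which limits their precision.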
